A study of Mus musculus with 3 samples.

Results

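Sodium, potassium and calcium channel genes were examined in Runx1 ChIP-seq of mouse spinal cord. Members were the regions that the authors assigned to a protein-coding gene of the Scn (alpha and beta), Kcn or Cacn (Cacna, Cacnb and Cacng) series, by gene symbol. They were 54 of the 15286 regions of the series, with 2 of 451 in replicate 1, 4 of 1641 in replicate 2 and 48 of 13194 in replicate 3. RefSeq lists 132 coding genes that fit these symbols, of which 14 are sodium, 26 calcium and 92 potassium channel genes. A region was assigned to 29 of the 132 in at least 1 replicate (22.0%, 95% Wilson interval 15.8 to 29.8), against 31.8% of all coding genes, and 103 had none.

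Runx1, a DNA-binding transcription factor best known from blood and myeloid cells, was immunoprecipitated from spinal cord chromatin of male C57BL/6J mice aged 8 to 10 weeks. The 3 replicates form 1 group, with no mutation, treatment or comparison group named in the labels. The deposited names also carry the tag Sal, which the labels do not explain, so whether the mice were treated is not known. Each used about 10 µg of chromatin from 10 cords and 9 µg of a rabbit polyclonal antibody. The labels describe no sorting of cell types and do not say whether replicates shared animals, so a region cannot be credited to a cell type, and spread between replicates may be technical. Sequencing depth is unknown, since read totals are not used here. Replicate 3 stands apart with 13194 regions, so each count is given by replicate, and its tissue label holds the antibody instead, so its group was read from its title. Defining genes of the cord's cells were checked: of 5 oligodendrocyte genes, 0, 5 and 5 had a region in replicates 1, 2 and 3, and of 4 neuronal genes 0, 2 and 4 had one. Astrocyte genes had regions at 0, 0 and 2 of 4, and microglial genes at 0, 0 and 1 of 6. The shares of all coding genes with a region were 1.51%, 5.16% and 31.4%, and no test set these short lists against them.

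Voltage-gated sodium channels carry the rising phase of the action potential. Potassium channels set the resting potential and repolarise the membrane, and in glia they also take up potassium released by active axons. Voltage-gated calcium channels admit the calcium that triggers transmitter release, and their auxiliary subunits govern trafficking and gating. In the spinal cord these families shape motor output and the relay of pain signals, and opioid receptors act partly through inwardly rectifying potassium channels and presynaptic calcium channels.

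RefSeq promoter windows on GRCm38.p6, from 250 bases before a gene's start to 50 after it, were at hand for 97 of the 132 channel genes (133 windows). In replicate 3 a region overlapped the window of 7 genes, Cacng3, Kcna6, Kcnab2, Kcnip4, Kcnj10, Scn1a and Scn8a, and in replicates 1 and 2 of 0. Kcna1, which had a promoter-class region in all 3 replicates, is among the 35 genes without a window, so this 0 does not cover it. The sequences of 4 are shown because they include the strongest of these regions (Kcnj10), both sodium channel pore genes and a neighbour of Kcna1 in its gene cluster. Capitals mark the bases inside a region of replicate 3, and each sequence reads 5′ to 3′ in the direction of the gene. The Kcnj10 window (chr1:172340960-172341259, plus strand) and the Scn1a window (chr2:66440788-66441087, minus strand) lay wholly inside a region, with 300 bases each. The regions covered 150 bases of the Kcna6 window (chr6:126740625-126740924, minus strand) and 72 of the Scn8a window (chr15:100870395-100870694, plus strand).
Kcnj10: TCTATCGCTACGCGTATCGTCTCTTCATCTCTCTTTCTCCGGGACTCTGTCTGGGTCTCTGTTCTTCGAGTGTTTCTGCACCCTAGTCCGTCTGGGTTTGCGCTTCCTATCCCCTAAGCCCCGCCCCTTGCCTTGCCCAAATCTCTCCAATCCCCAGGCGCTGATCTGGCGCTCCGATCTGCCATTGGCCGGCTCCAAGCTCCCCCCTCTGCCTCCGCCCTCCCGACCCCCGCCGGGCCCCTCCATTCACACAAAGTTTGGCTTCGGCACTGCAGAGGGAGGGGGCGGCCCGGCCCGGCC
Scn1a: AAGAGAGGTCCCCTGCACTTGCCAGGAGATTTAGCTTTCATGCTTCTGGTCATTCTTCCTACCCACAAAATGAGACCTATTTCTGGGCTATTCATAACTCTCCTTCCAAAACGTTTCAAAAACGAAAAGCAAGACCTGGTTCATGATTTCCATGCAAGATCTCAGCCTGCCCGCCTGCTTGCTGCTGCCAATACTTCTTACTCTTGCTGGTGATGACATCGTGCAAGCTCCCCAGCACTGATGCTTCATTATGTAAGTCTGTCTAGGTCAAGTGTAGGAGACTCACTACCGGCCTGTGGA
Kcna6: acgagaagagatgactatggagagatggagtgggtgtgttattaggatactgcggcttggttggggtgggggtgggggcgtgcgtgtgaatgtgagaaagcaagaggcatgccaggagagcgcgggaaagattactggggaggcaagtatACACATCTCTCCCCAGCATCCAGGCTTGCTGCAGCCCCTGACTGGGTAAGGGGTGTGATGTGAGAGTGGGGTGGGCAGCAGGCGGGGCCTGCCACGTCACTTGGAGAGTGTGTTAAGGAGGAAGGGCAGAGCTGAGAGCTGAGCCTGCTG
Scn8a: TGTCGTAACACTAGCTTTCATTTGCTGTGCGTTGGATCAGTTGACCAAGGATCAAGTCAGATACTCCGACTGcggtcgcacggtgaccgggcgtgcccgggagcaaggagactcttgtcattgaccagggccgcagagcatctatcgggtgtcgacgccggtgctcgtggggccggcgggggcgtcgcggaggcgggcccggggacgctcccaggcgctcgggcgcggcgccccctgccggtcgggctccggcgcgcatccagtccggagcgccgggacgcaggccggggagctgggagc

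Of these 4 windows, that of Scn8a was the richest in G and C, and those of Kcnj10, Kcna6 and Scn1a had 63.7%, 58.3% and 47.3%. The hexamers TGTGGT and TGCGGT, forms of the core motif of RUNX proteins, were searched on both strands. No position can match both, and of the 7 overlapped windows 1 held a match, TGCGGT in Scn8a, at position -180 from the gene's start, across the edge of the region. Either hexamer occurred in 21.8% of the 133 channel windows and in 21.6% of all 21263 windows of coding genes. These matches describe letters and not binding.

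The channel genes with a region in at least 2 replicates included Kcna1, Kcnj10 and Kcnk13, all pore-forming potassium channel genes. In all they were 4 of 132 (3.03%, 95% Wilson interval 1.18 to 7.53), and 5.43% of all coding genes met the same condition. Kcna1 was found in all 3 replicates. At Kcna1, Kcnj10 and Kcnk13, regions of different replicates overlapped. A summit of replicate 3 lay 4 to 48 bp from the strongest summit of replicate 1 or 2. That summit was the nearest of several, and it was the strongest of its region at Kcnj10 alone. Another Kcnj10 summit of replicate 2 was 374 bp from the nearest.

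Kcna1 (ENSMUSG00000047976) encodes a Shaker-type channel that lies beside the nodes of Ranvier of myelinated axons. Its region on chromosome 6 spanned 126644876 to 126645116 in replicate 1, 126644804 to 126645404 in replicate 2 and 126641827 to 126645903 in replicate 3 (GRCm38). Folds over background, as the authors' peak caller gave them for the strongest summit, were 4.73, 3.20 and 5.32, from summit pileups of 22, 18 and 42 fragments. The replicate 3 region was 4077 bp wide with 6 summits. Its strongest summit was at 126642859, while those of replicates 1 and 2 were elsewhere, at 126645009 and 126645059. The replicate 3 summit nearest to that of replicate 1 was 4 bp away, with a fold of 5.05. It was 46 bp from the summit of replicate 2. Replicate 3 had 4 further Kcna1 regions with folds of 2.63 to 4.08, of which the strongest was intergenic, at -11594 bp from the start of the transcript the authors assigned to it, which is not that of the widest region. A single replicate gives no error for a fold, and folds in lists of different length are set side by side without a comparison of strength.

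Kcnj10 (ENSMUSG00000044708) encodes an inward rectifier that astrocytes and oligodendrocytes use to take up potassium. It had 0, 1 and 6 regions in replicates 1, 2 and 3. The replicate 2 region (chromosome 1, 172342182 to 172343161) reached a fold of 5.15, with 29 fragments at its summit. It lay inside the promoter region of replicate 3 (172340778 to 172343543), which had a fold of 7.80 and 62 fragments. The strongest summits of both were 48 bp apart, 1873 and 1825 bp after the start site. The other 5 regions of replicate 3 were intronic within Kcnj10, with folds of 2.80 to 4.71, the farthest beginning 11764 bp past the start.

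Kcnk13 (ENSMUSG00000045404) encodes a tandem-pore potassium channel of microglia. It had 0, 1 and 2 regions in replicates 1, 2 and 3. On chromosome 12 the replicate 2 region (99966778 to 99967579) had a fold of 3.49 and only 14 fragments at its summit. It overlapped the 2060 bp region of replicate 3 (99965599 to 99967658, fold 5.67). Of the 4 summits there, 1 that was not the strongest (fold 4.73) was 21 bp from the summit of replicate 2. These regions began 2252 bp (replicate 2) and 1073 bp (replicate 3) downstream of the start site.

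**Figure D1:**
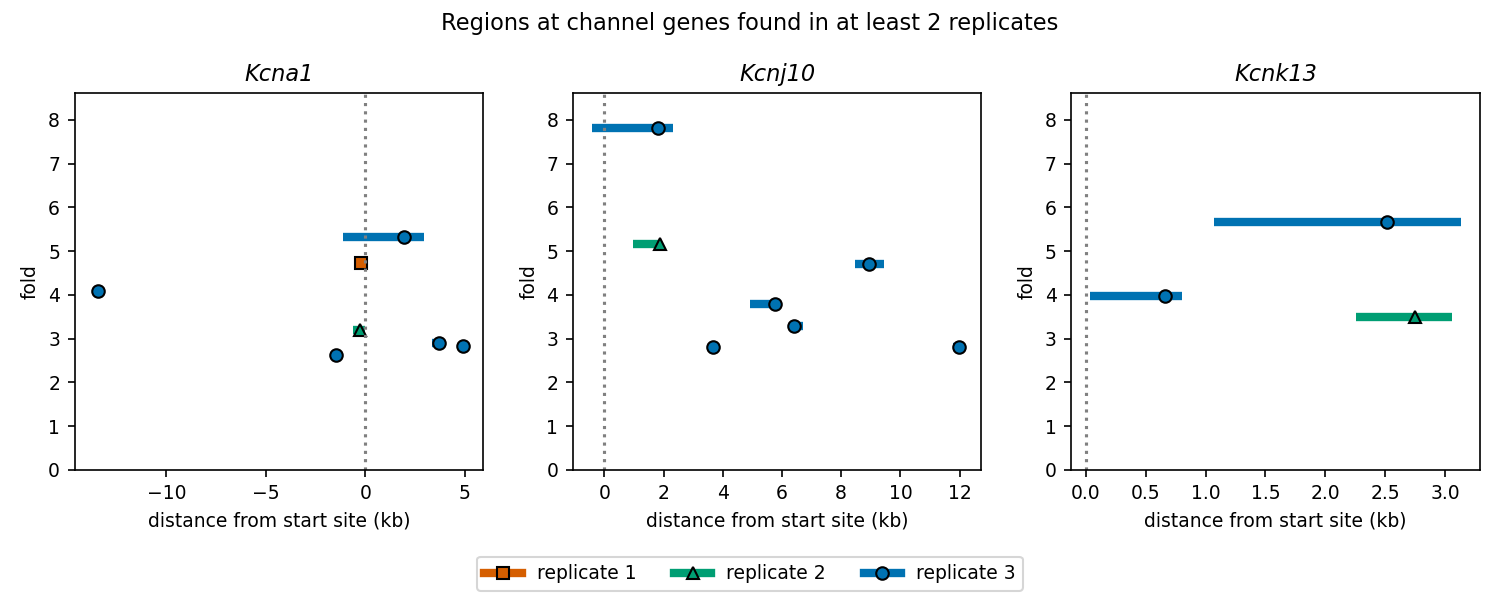
Regions at Kcna1, Kcnj10 and Kcnk13, by distance in kb from 1 start site a gene, that of the transcript the authors gave its strongest replicate 3 region (horizontal axis, positive downstream), and fold over background (vertical axis). Bars span regions, narrow ones hidden behind their marker, and markers show the strongest summit in replicate 1 (square), 2 (triangle) and 3 (circle). At each gene a region of replicate 1 or 2 falls over a region of replicate 3.

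Of the 6 channel regions in replicates 1 and 2, 5 overlapped a region of replicate 3 assigned to the same gene by at least 1 bp. The exception was Kcnk5, a pH-sensitive tandem-pore channel gene, with a region in replicate 2 alone (chromosome 14, 20143978 to 20144423, fold 3.66, 14 fragments). The 5 overlaps also held at 50% of the shorter region, and 1 held at 50% of both regions. At Kcna1, Kcnj10 and Kcnk13 the replicate 3 region was the wider. Replicate 3 was the only one with a region at the remaining 24 of the 29 genes.

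Sodium channel genes had regions in replicate 3 alone, at 3 of 14 genes (21.4%, Wilson interval 7.57 to 47.6), where 31.4% of all coding genes had one. Scn8a, which encodes the main pore subunit at mature nodes of Ranvier, had a pair of promoter regions on chromosome 15 (100870069 to 100870466 and 100871889 to 100872104) with folds of 4.00 and 3.15. Scn1a, a pore gene prominent in inhibitory neurons, had a 1602 bp promoter region of 3 summits (chromosome 2, 66439495 to 66441096), at a fold of 3.88. All 4 sodium channel regions belonged to the authors' 1 kb promoter class, and none of their folds reached 5.

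Calcium channel genes also had regions in replicate 3 alone, at 7 of 26 genes (26.9%, interval 13.7 to 46.1), against 31.4% of all coding genes. By subfamily these were 1 of 10 pore-forming alpha1 genes, 3 of 4 alpha2delta genes, 2 of 4 beta genes and 1 of 8 gamma genes. Cacna1a, the pore of presynaptic P/Q-type channels, had a promoter region with a fold of 3.86 and an intronic one with 2.76. Cacna2d1, which encodes the alpha2delta subunit bound by gabapentin, had a fold of 4.02 from 22 fragments in its promoter (chromosome 5, 15935638 to 15936288). Among its paralogues, Cacna2d3 had an intronic region with a fold of 5.25, the highest of the calcium class, and Cacna2d4 an exonic one with 4.65. Cacnb4 and Cacnb2, cytoplasmic subunits that bring the pore to the membrane, had a pair of promoter regions each, with folds of 4.68 and 3.10 for Cacnb4 and of 4.09 and 3.38 for Cacnb2. Cacng3, a relative of the gamma subunits that escorts AMPA receptors, had a fold of 2.92 at 14 fragments.

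Potassium channel genes had regions at 2, 4 and 18 of 92 in replicates 1, 2 and 3, which was 2.17%, 4.35% and 19.6% (interval for replicate 3, 12.7 to 28.8). The same shares of all coding genes were 1.51%, 5.16% and 31.4%. The highest fold of any channel gene in replicate 3, 8.27 from 58 fragments, lay at Kcnn1, a small-conductance calcium-activated channel gene (chromosome 8, 70865502 to 70865965). It ranked 354 of 13194, at the 97.3 percentile. The authors placed it at -2243 bp from the start of their transcript, and it spans the upstream (5′) boundary of the RefSeq gene at 70865691, on the minus strand. Its relative Kcnn2 was at the other end of the scale, with a fold of 2.44 (0.618 percentile), and Kcnt1, a sodium-activated channel gene, had 2.91.

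Voltage-gated pore genes made up 9 of the 18. They were 9 of 40 such genes (22.5%, interval 12.3 to 37.5), where 31.4% of all coding genes had a region. Kcna6, a Shaker-type gene 62.5 kb from Kcna1 on chromosome 6, had 4 regions, the strongest intergenic at 126761411 to 126761892 with a fold of 6.21. Its other 3 regions were in the promoter class, with folds of 3.03 to 3.89. Kcna5, 100.9 kb from Kcna1, had none. Kcnq3, a subunit of the M-current that dampens repetitive firing, reached a fold of 6.02 in its promoter (chromosome 15, 66286337 to 66287016) and had intronic regions with 3.74 and 3.35. Kcnc2, Kcnd2, Kcnh2 and Kcna2 had 1 region each, with folds of 4.19, 3.66, 3.60 and 2.58. Auxiliary subunits had 1 region each at 4 of 15 genes: Kcnab1 with a fold of 5.79, Kcnip1 with 4.48, Kcnab2 with 3.37 and Kcnip4 with 2.91. Kcnab proteins bind Shaker-type channels, and Kcnip proteins bind the A-type channels to which Kcnd2 belongs.

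**Figure D2:**
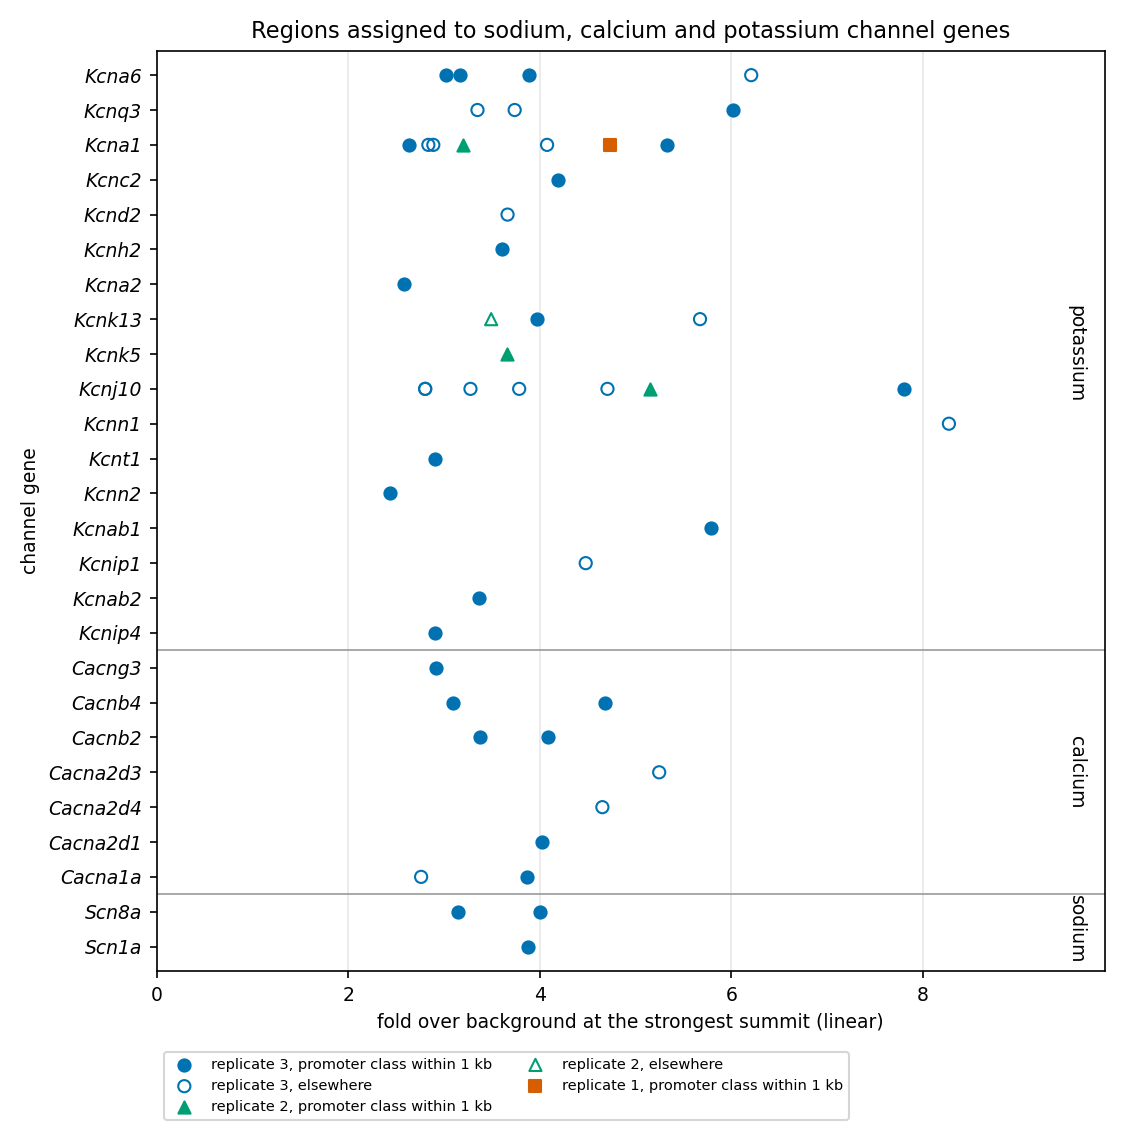
Fold over background (horizontal axis, linear) of 49 regions at 26 channel genes (vertical axis), by replicate. Filled markers are regions in the promoter class within 1 kb and open markers all others; 2 Kcnj10 regions coincide at 2.80. Folds ran between 2.44 and 8.27 in replicate 3, with Kcnn1 and Kcnj10 highest.

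Members with regions were also counted in short lists of channel genes, among them lists tied to opioid action, microglia and axons. Of 4 inward rectifier genes that opioid receptors open through G proteins (Kcnj3, Kcnj5, Kcnj6 and Kcnj9), 0 had an assigned region in any replicate. Of 3 sodium channel genes of nociceptors (Scn9a, Scn10a and Scn11a) there were likewise 0. Of 5 potassium channel genes used by microglia (Kcnk13, Kcnk6, Kcna3, Kcnn4 and Kcnj2), Kcnk13 alone had regions, in replicates 2 and 3. Kcnj10 had regions and Kcnj16, its glial partner, did not. Of 11 genes of the node and axon, 6 had a region in replicate 3, Scn8a, Kcna1, Kcna2 and Kcnq3 among them, and Scn2a, Scn2b, Scn4b, Kcnk2 and Kcnk4 did not. Of 4 calcium channel targets at presynaptic terminals, Cacna1a and Cacna2d1 had regions in replicate 3 and Cacna1b and Cacna2d2 did not. Absence from these lists of regions does not show absence of Runx1, and the gene lists are too short to set against the 31.4% of coding genes with a region.

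Counted over all 132 genes, 2, 4 and 28 had an assigned region in replicates 1, 2 and 3. These were 1.52% (interval 0.416 to 5.36), 3.03% (1.18 to 7.53) and 21.2% (15.1 to 28.9), against 1.51%, 5.17% and 31.4% of the other coding genes. Over all 21887 coding genes the shares were 1.51%, 5.16% and 31.4%. The channel share was lower in replicates 2 and 3 and level in replicate 1, a mean difference of -4.12 percentage points ± 5.40 (SD, n = 3 replicates). It did not exceed the spread between replicates (exact two-sided sign-flip permutation p = 0.50, where 0.25 is the smallest that 3 replicates allow).

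Sodium, calcium and potassium genes did not keep 1 order across replicates. In replicate 3 the shares were 21.4%, 26.9% and 19.6%, while replicates 1 and 2 had potassium channel regions alone. Sodium minus potassium genes gave a mean difference of -1.55 points, calcium minus potassium 0.279 and sodium minus calcium -1.83 (exact sign-flip permutation p = 0.50, 1 and 1, each 1 after adjustment over the 3 pairs). For sodium minus calcium the p was fixed in advance, since replicates 1 and 2 had a difference of 0, so that test decides nothing. In replicate 3, 17 of 97 pore-forming genes had a region (17.5%, interval 11.2 to 26.3), as did 11 of 35 auxiliary genes (31.4%, interval 18.6 to 48.0). In replicates 1 and 2 it was 2 and 4 pore-forming genes and 0 auxiliary genes. Of all coding genes, 1.51%, 5.16% and 31.4% had a region in replicates 1, 2 and 3. The auxiliary share of replicate 3 was thus level with that of all coding genes.

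**Figure D3:**
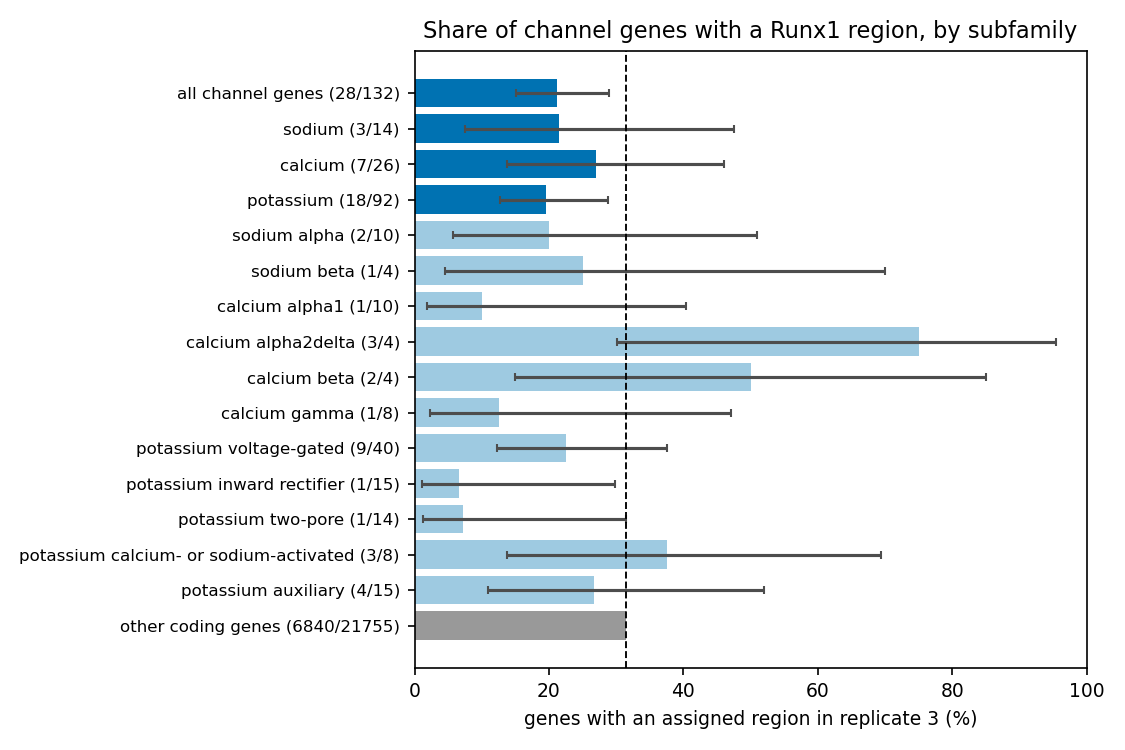
Share of genes with an assigned region in replicate 3 (horizontal axis, percent), for channel classes and subfamilies (vertical axis, with counts), with 95% Wilson intervals for counting error. The dashed line marks the 31.4% of other coding genes; the intervals of most subfamilies span it.

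Channel genes are long, with a median of 47.4 kb against 17.1 kb for other coding genes, and longer genes had regions more often. At every length their share in replicate 3 was below that of other coding genes. It was 5.26% against 19.1% under 10 kb, 12.1% against 32.7% at 10 to 30 kb, 21.6% against 41.0% at 30 to 100 kb, 22.7% against 47.5% at 100 to 300 kb, and 47.6% against 53.7% above 300 kb. The intervals, which cover counting error within replicate 3 only, overlapped in the shortest and the longest class. Among genes at least as long as the median channel gene, the shares were 0%, 1.52% and 30.3% in replicates 1, 2 and 3, against 2.09%, 7.75% and 45.8% of other coding genes. Channel genes were then lower in 3 of 3 replicates, by a mean difference of -7.94 points (exact sign-flip permutation p = 0.25, the smallest possible).

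At the RefSeq promoter windows the comparison ran the same way. A region overlapped 0%, 0% and 5.26% of the 133 channel windows in replicates 1, 2 and 3, against 1.21%, 3.50% and 26.7% of 21130 windows of other coding genes. Channel windows were lower in 3 of 3 replicates, with a mean difference of -8.71 points ± 11.1 (SD; exact sign-flip permutation p = 0.25, the smallest possible). Median GC content was 58.0% in channel windows and 56.3% in others, and the median ratio of observed to expected CpG was 0.435 and 0.568. In windows of 60 to 70% GC, 2 of 39 channel windows were overlapped (5.13%, interval 1.42 to 16.9), against 43.9% of others, and below 50% GC it was 1 of 25 (4.00%, interval 0.710 to 19.5) against 7.05%. Of the 22 channel genes with a promoter-class region in replicate 3, 15 had a window and 7 of those were overlapped. Of other coding genes with such a region, 5024 had a window and 4285 were overlapped.

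**Figure D4:**
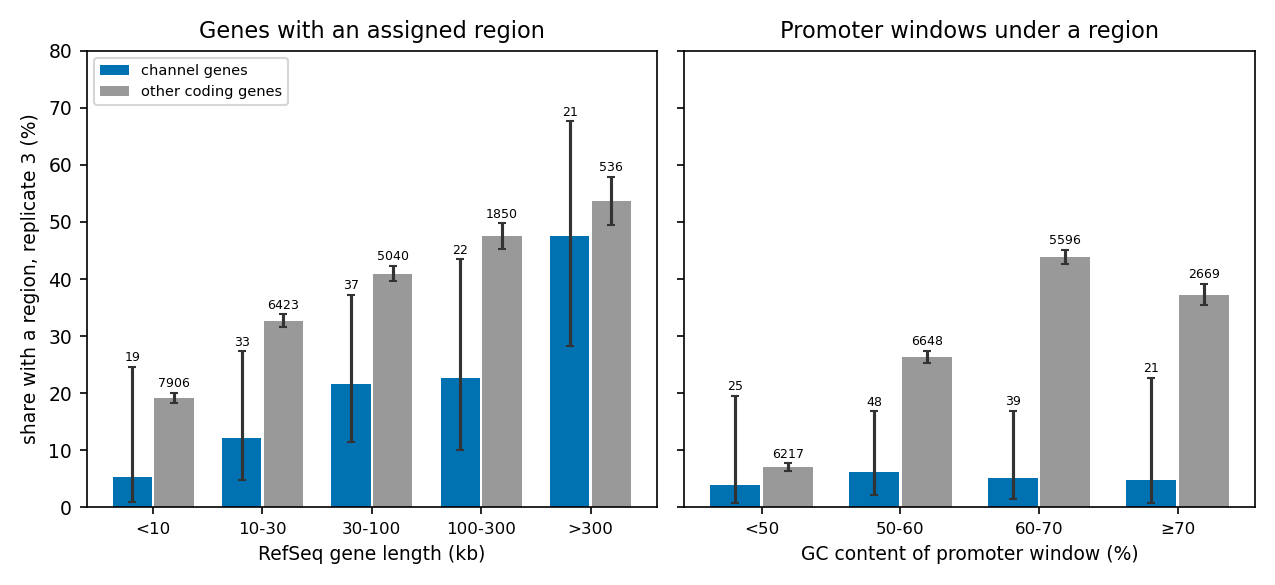
Share with a region in replicate 3 (vertical axes, percent) by RefSeq gene length in kb (left, genes) and by GC content of the promoter window (right, windows), for channel and other coding genes, with 95% Wilson intervals and the number of genes or windows above each bar. Channel bars lie below the others in every class, and from 50% GC upward their intervals do not reach the others' shares. The intervals cover counting error within replicate 3 and are no test over replicates. Windows are not independent, as the 133 channel windows come from 97 genes.

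Most regions of channel genes were in the promoter class within 1 kb, and the rest lay elsewhere in or near the genes. In replicates 1, 2 and 3, the promoter class within 1 kb held 2 of 2, 3 of 4 and 28 of 48 channel regions. These were 100%, 75.0% and 58.3% (interval for replicate 3, 44.3 to 71.2), against 89.7%, 76.6% and 71.3% of regions of other coding genes. The sign of the difference changed between replicates (mean -1.42 points, exact sign-flip permutation p = 0.75). Of the channel promoter regions of replicate 3, 15 of 28 reached the start site itself (53.6%, interval 35.8 to 70.5), against 71.7% of those of other coding genes. Introns held 11 of the 48 (22.9%), against 12.7% of regions of other coding genes, and all 11 lay in the gene to which they were assigned, 5 of them in Kcnj10. By class, 4 of 4 sodium, 7 of 10 calcium and 17 of 34 potassium channel regions were in the promoter class.

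Folds of channel regions had median percentiles of 68.1, 26.3 and 45.6 within the lists of replicates 1, 2 and 3, from 2, 4 and 48 regions. Median folds were 5.99, 3.58 and 3.70 in replicates 1, 2 and 3, against 4.86, 4.00 and 3.81 for regions of other coding genes, which is a mean difference of 0.03 ± 0.24 on the log2 scale (SD, n = 3; exact sign-flip permutation p = 1). In replicate 3 the medians were 3.68 for sodium, 3.94 for calcium and 3.63 for potassium channel regions, within ranges of 3.15 to 4.00, 2.76 to 5.25 and 2.44 to 8.27. Promoter regions had a median of 3.73 and regions elsewhere 3.70. Of the 48 regions, 8 had a fold of at least 5, against 2150 of the 10373 regions of other coding genes. They lay at Kcnn1, Kcnj10, Kcna6, Kcnq3, Kcnab1, Kcnk13, Kcna1 and Cacna2d3. Of the 48 regions, 5 were 1 kb or wider, against 1325 of the 10373, and the median width was 396.5 bp, against 482 bp for other coding genes.

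Assignment by position gave more channel genes. With a region counted for every RefSeq gene whose body, with 1 kb around it, it overlaps, 35 of 132 channel genes had one in replicate 3 (26.5%, interval 19.7 to 34.6), against 36.5% of all coding genes. The genes gained were Cacna1c, Kcng2, Kcnh6, Kcnj3, Kcnj6, Kcnk1, Kcnk10 and Kcnma1, and 1 gene was lost. Kcnj3 and Kcnj6, 2 of the 4 opioid-coupled inward rectifier genes, had 1 region each with folds of 3.15 and 3.80. The Kcnj3 region was intronic, with 12 fragments, and that of Kcnj6 lay within 1 kb outside the gene body, with 17.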

How the data were processed

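Per the submitters' processing notes, the tools were Trimmomatic 0.38, FastQC, Bowtie2, SAMtools 1.9, Picard 2.18.26 and MACS2 2.1.2, with GRCm38 as the build. Settings and the control library, not given in the sources used here, were left unstated. Each deposited list holds, per summit, a score, a fold (ratio) over background, and −log10 p and −log10 q, from the authors' caller. In replicates 1, 2 and 3, deposited −log10 q began at 2.01, 2.00 and 2.00. The authors' annotated tables give other columns, a location class, a gene and its distance in bp. Deposited starts count from 0 and are printed from 1.

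A region took the fold of its strongest summit. Whole-number pileups were solved from fold and p under a Poisson model, within 0.001 in −log10 p for 100% of summits. The level of background fragments at a summit was at least 2.23, 2.67 and 3.13 in replicates 1, 2 and 3. Coding symbols matched RefSeq (GRCm38.p6) in 98.8%, 99.7% and 99.1% of cases, older symbols included. Tests were exact sign-flip permutation tests over replicates. Wilson intervals (95%) cover counting error only. Members and lists were chosen with earlier results of these data known, and the promoter window comparison was added after seeing the values. Named genes were those in at least 2 replicates, the 10 highest in fold, the 5 with most and the 5 with widest regions in replicate 3, the top gene of each subfamily and 6 short lists; most remaining genes with a region were named too. A few items are not reported here, though counts include them. The scripts were tested on simulated data. Python 3.11.15 was used with scipy 1.17.1, numpy 2.4.6 and pandas 2.3.3, and matplotlib 3.10.9 for plots.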

Additional observations from a re-analysis of the deposited data

Results flagged for a closer look

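In replicate 3, 23 regions lay inside, or within 1 kb of, 19 channel genes but carry another gene's name in the authors' table, so the comparisons by assigned gene do not use them. Counting by gene body and 1 kb gave 26.5% of channel genes a region, where assignment gave 21.2%, and 36.5% of all coding genes, where assignment gave 31.4%. No test compared these steps. Of these, 4 were assigned to coding genes and 19 to other biotypes, mostly antisense RNAs and pseudogenes, with folds of 2.61 to 5.68. Kcnd2, an A-type channel gene, had 4 such intronic regions with folds of 3.16 to 3.77, and Scn1a had 2, both at the transcript Gm13630, with folds of 4.67 and 3.02. The highest, with a fold of 5.68, was in the promoter class of Dcp1b and lay within the body of Cacna1c, the pore of a cardiac and neuronal L-type channel. Replicate 1 had 1 such region, in an intron of Cacng2 (chromosome 15, 78045240 to 78045699, fold 5.57, 17 fragments), assigned to the antisense gene A730060N03Rik. Replicate 2 had 0. Which gene such a region acts on was not tested.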

How the results depend on the processing

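No paired analysis was possible because the 3 replicates form 1 group. The lower share of channel genes kept its sign under all 9 alternatives, with -0.239 points at equal numbers of regions, where replicate 2 alone was lower (0.758% of channel genes, against 1.49% of all coding genes), and -0.835 at a fold of 5 or more, and between -6.18 and -1.07 with each replicate left out. The difference in promoter share became positive at a q of 1e-05 or lower (5.32 points), at a fold of 5 or more (1.81) and with promoters widened to 3 kb (0.757), and ran from -7.29 to 4.37 with each replicate left out, positive without replicate 3. The log2 difference in median fold ran from -0.10 (without replicate 1) to 0.13. Calcium minus potassium genes became negative at a fold of 5 or more (-1.98 points) and among pore-forming genes (-5.32), and ran from -3.26 (without replicate 3) to 2.59. Sodium minus calcium genes became positive among pore-forming genes (3.33) and ran from -2.75 to 0, with 0 without replicate 3. Sodium minus potassium genes ran from -3.26 to -0.155. The cause of these changes was not tested. Overlap of replicates 1 and 2 with replicate 3 at the same gene was 5 of 6 regions, and 1 with 50% of both regions. The difference in promoter windows ran from -12.5 (without replicate 1) to -2.35 (without replicate 3). Channel regions in replicates 1 and 2 rested on 14 to 29 fragments at the summit, which limits what those lists can show.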
